A study of Cicer arietinum with 11 samples.

Results

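Transcripts of chickpea (Cicer arietinum, genotype ICC4958) were compared between flower bud 1, taken as the youngest of 4 numbered flower bud stages, and flower buds 2, 3 and 4. A transcript was counted as different where its log2(RPKM + 1) in flower bud 1 lay at least 1 above the highest, or at least 1 below the lowest, of the 3 later buds. RPKM is a read count divided by transcript length and library size, and at least 1 of the 4 buds had to reach an RPKM of 1. Of 34760 transcripts, 31643 passed that minimum, 711 were higher in flower bud 1 than in every later bud and 673 were lower, 1384 members in all. The members were then followed into 4 flower stages (flower 1 to 4) and 3 vegetative tissues, namely young leaves, the germinating seedling and a shoot apical meristem sampled when plants were 20 days old.

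Each stage or tissue was 1 mRNA library of the same genotype. Seedlings were raised indoors in a culture room, whereas the mature plants that gave buds, flowers and leaves stood in the field. The labels list no treatment. The labels do not say how many plants went into a library or what each stage number means in bud size, so the order of the numbers as an order of age is an assumption. The files give transcript IDs with no gene names, and a table of 29938 chickpea genes matched 0 of them. The function of a transcript is therefore not stated, lists of floral, pollen and photosynthesis genes could not be counted, and the tissue labels could not be checked against marker genes.

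A flower bud starts as a floral meristem, a group of dividing cells that lays down sepals, petals, stamens and carpels. Inside the young anther, cells that will undergo meiosis are surrounded by the tapetum, a short-lived feeding layer whose genes are active for a limited time. Pollen maturation, petal expansion and the opening of the flower follow later and use other gene programmes. A whole bud mixes all of these tissues, so fewer cells of a type and less RNA per cell cannot be told apart in the values below.

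Library totals recovered from the RPKM values ran from 14536530 reads in flower bud 2, the shallowest, to 35643139 in flower bud 3, and flower bud 1 had 33854669. For a transcript of 736 bases, the median, a single read was worth 0.0401 RPKM in flower bud 1 and 0.0935 in flower bud 2. Across the 31643 transcripts, the Spearman correlation of flower bud 1 was 0.901 with flower bud 2, 0.874 with flower bud 3 and 0.851 with flower bud 4. With the other libraries it lay between 0.728 (germinating seedling) and 0.774 (flower 1). These correlations are across transcripts of single libraries and are given as a description. Flower bud 1 was nearest to flower bud 2 by the count of differing transcripts too, with 1843 transcripts (5.82%) higher and 2189 (6.92%) lower by at least 1 log2. The counts were 2260 (7.14%) and 2634 (8.32%) against flower bud 3, and 2707 (8.55%) and 2602 (8.22%) against flower bud 4.

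The first comparison asks what sets the youngest bud apart from the buds that follow it. The higher members were 2.25% and the lower members 2.13% of the transcripts that passed the minimum. Both shares follow from the rule and carry no test, because flower bud 1 is a single library without a replicate. For scale, the same rule applied to flower bud 4 against the 3 earlier buds gave 671 higher transcripts (2.12%) and 350 lower (1.11%), with no test of that difference. Gaps were mostly small: the median distance from flower bud 1 to the nearest later bud was 1.35 log2 among the higher members and 1.32 among the lower. A gap of at least 2 was found in 165 higher and 92 lower members, and of at least 4 in 35 and 3. Just inside the threshold, a higher member had 4.75 RPKM in flower bud 1 and 1.87 in its nearest later bud, and just outside, a transcript had 22.7 and 10.8. On the lower side the values were 7.93 against 16.9 just inside and 2.46 against 5.92 just outside.

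**Figure D1:**
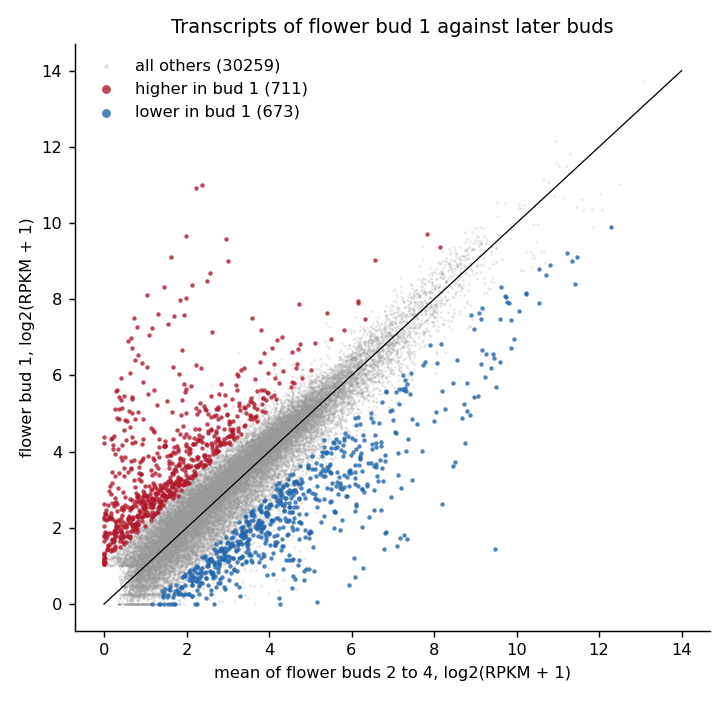
Level of each of the 31643 transcripts in flower bud 1 (vertical axis) against the mean of flower buds 2 to 4 (horizontal axis), both as log2(RPKM + 1), with the line of equality. The 711 higher members (red) reach far above the line at low later-bud levels, while the 673 lower members (blue) lie below it. By the rule every later bud held at least 1 RPKM of each lower member, so no blue point lies at the lowest later-bud levels.

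The 95% Poisson interval of the reads in flower bud 1 was compared with that of each later bud. It overlapped none in 647 of the 711 higher and 567 of the 673 lower members. These intervals cover counting error only. The rule chose members by a gap in these same values, so intervals that lie apart are no support for them. The same holds for the intervals of single transcripts below. The numbers of members rested on which later buds were compared. Leaving out a later bud relaxes the rule, so it could only add members. Without flower bud 2 the rule gave 1250 higher and 1319 lower transcripts, and without flower bud 4 it gave 1267 lower. The balance between the directions depended on scaling: the higher set was 51.4% of all members in the values as deposited. The share was 40.2% (531 higher and 789 lower) once libraries were scaled by median of ratios and 45.8% (623 and 737) after quantile normalization. The median of flower bud 1 minus the mean of later buds over all transcripts was 0.10 log2 as deposited and -0.01 with median-of-ratios scaling.

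Among the higher members, flower bud 1 held 25800 summed RPKM, or 3.41% of its total, and the 3 later buds 4640, 3240 and 2810. The median member had 10.7 RPKM in flower bud 1, then 2.31, 1.51 and 1.31 in flower buds 2, 3 and 4. In flower bud 1, 363 members reached 10 RPKM and 44 reached 100. In 175 members all 3 later buds stayed under 1 RPKM, and in 21 of these the later buds held 0 reads; a count of 0 allows up to 3 reads per library. Flower bud 2 was the nearest later bud for 429 members (60.3%), while it was the highest of the 3 later buds in 40.4% of all transcripts. A fall at each step from flower bud 2 to 4 was seen in 218 members (30.7%), near the 26.6% of all transcripts. Both comparisons use bud values that chose the members, so they are descriptions only.

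The largest gap belonged to Ca_TC15448, with 181 RPKM in flower bud 1 and 3.33, 0.0431 and 0.0259 in flower buds 2, 3 and 4. Levels elsewhere were 0.0487 RPKM in the shoot apical meristem, 0.0310 in flower 1 and 0 reads in the germinating seedling, young leaves and flowers 2, 3 and 4. Flower bud 1 was thus the one library in which this transcript was abundant, and its level was 54.4 times that of flower bud 2 (95% counting interval 42.5 to 70.9). Ca_TC12018 had 278 RPKM in flower bud 1 and 5.99, 0.0932 and 0.134 in the later buds. Its flowers held 0.0536, 0.159, 0.0653 and 0.0266 RPKM, and the germinating seedling, young leaves and meristem 0.0833, 0.0489 and 0.253. It was 46.4 times as high in flower bud 1 as in flower bud 2 (39.1 to 55.6), and the other 9 libraries were below 1 RPKM. Ca_TC04285 had 119 RPKM in flower bud 1, then 2.18, 0.0742 and 0 in the later buds, and at most 0.0267 in any flower. The shoot apical meristem held 2.22 RPKM, the germinating seedling 0.0276 and young leaves 0, so the meristem and flower bud 2 were alike and both far below flower bud 1.

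These 3 transcripts have many companions. In 324 higher members (45.6%) flower bud 1 stood at least 1 log2 above all other 10 libraries. A transcript with this pattern is a higher member by the rule, so the same 324 are 1.02% of all transcripts and that share is no comparison. Their median was 16.7 RPKM in flower bud 1, 2.34 in flower bud 2 and 0.871 or less in every other library. In 85 members every library but flower bud 1 was under 1 RPKM. A narrower set was picked after the values were seen: 53 members with at least 10 RPKM in flower bud 1 and under 1 RPKM in flower buds 3 and 4, all flowers and all vegetative tissues. Flower bud 1 values of the 53 ran from 10.1 to 2060 RPKM, with a median of 40.4. Their summed level was 8470 RPKM in flower bud 1, 445 in flower bud 2, 6.61 in flower bud 3 and 5.81 in flower bud 4. As a share of each transcript's flower bud 1 level, the median over the set was 4.01% in flower bud 2 (quartiles 2.36% and 8.24%), against 0.0288% in flower bud 3 and 0.0224% in flower bud 4. The choice of the set capped flower buds 3 and 4 but not flower bud 2, so this order follows in part from the choice.

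**Figure D2:**
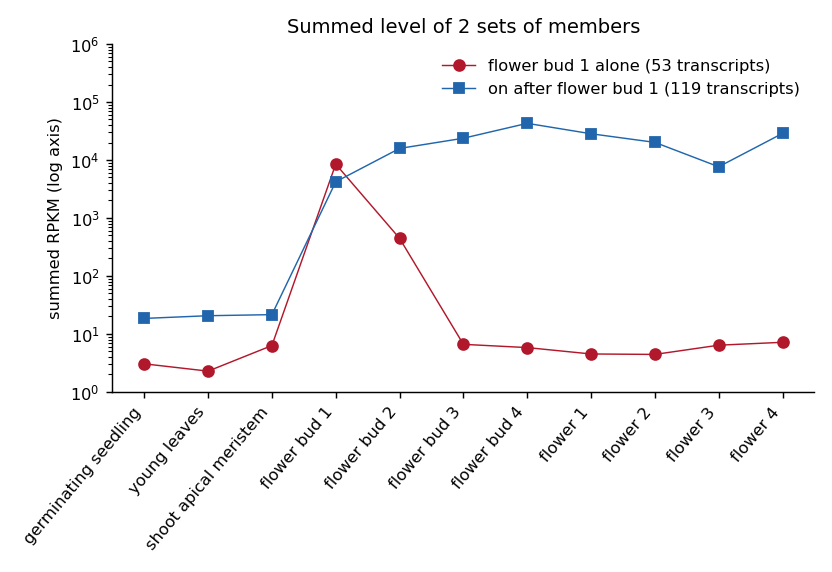
Summed RPKM (log axis) by library for 53 members abundant in flower bud 1 alone (red) and 119 lower members that stayed under 1 RPKM in all vegetative tissues (blue). The red set falls from 8470 in flower bud 1 to 445 in flower bud 2 and 6.61 in flower bud 3, while the blue set rises from 4200 in flower bud 1 to 42800 in flower bud 4. The choice of each set fixed the direction of these steps from flower bud 1 and the low vegetative levels.

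Of the higher members, 204 (28.7%) came back to within 1 log2 of flower bud 1, or above it, in at least 1 flower. Among all transcripts 92.3% did. The flower bud 1 level also chose the members, so a share below that of all transcripts follows in part from the rule. The return was more frequent in late flowers, with 72 members in flower 1, 93 in flower 2, 133 in flower 3 and 143 in flower 4. Of the 204, 94 returned in flower 3 or 4 and not in flower 1 or 2, and 28 the other way round. Over all transcripts the shares ran from 76.0% in flower 3 to 84.9% in flower 2. Ca_TC12213 returned with the largest gap among those that were not near the flower bud 1 level in vegetative tissue. It had 73.0 RPKM in flower bud 1, then 3.93, 3.39 and 5.16 in the later buds. Flowers 1 and 2 held 4.33 and 7.21 RPKM and flowers 3 and 4 held 120 and 132, above flower bud 1. Its vegetative levels were 4.85, 0.117 and 2.92 RPKM in seedling, leaves and meristem. The flower mean was 65.9 ± 69.7 RPKM (SD, n = 4) and the vegetative mean 2.63 ± 2.38 (SD, n = 3), and this difference did not pass (limma, adjusted p = 0.165).

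In vegetative tissue, 346 higher members (48.7%) lay within 1 log2 of flower bud 1 or above it in at least 1 library, against 94.7% of all transcripts. This difference in share too follows in part from the rule, which used the flower bud 1 level. The shoot apical meristem met this most often, in 246 members, ahead of the germinating seedling with 187 and young leaves with 149. For higher members, a match, or being at the flower bud 1 level, includes any level above flower bud 1. Over all transcripts the meristem also had the largest share of the 3 vegetative tissues by this count, at 87.9% against 82.8% and 71.8%. The count has no upper limit, so it does not measure closeness. The meristem alone matched in 95 members (13.4%), the germinating seedling alone in 51 (7.17%) and young leaves alone in 32 (4.50%). Over all transcripts the order was the same, with 5.19%, 2.54% and 1.47%. In 183 members (25.7%) a vegetative tissue but no flower was at the flower bud 1 level, in 41 (5.77%) a flower but no vegetative tissue, and in 163 (22.9%) both. No share over all transcripts stands beside these class counts, so they show no leaning of the members. Ca_TC13261, the widest gap among the 183, had 32.8 RPKM in flower bud 1 and 30.6 in the germinating seedling, with 3.33 to 6.21 RPKM in the other 9 libraries. Ca_TC04420, the widest among the 163, had 40.1 RPKM in flower bud 1, 35.8 in the germinating seedling, 26.0 in flower 3 and 20.9 in flower 4. Its levels in flower buds 2 to 4 were 4.11, 2.06 and 2.25, those in flowers 1 and 2 were 3.62 and 5.47, and leaves and meristem had 4.45 and 2.36. These counts grew along with the set when a later bud was left out. Without flower bud 2, 484 of 1250 higher transcripts came back in a flower and 743 matched a vegetative tissue. The counts were 356 and 553 of 930 without flower bud 3, and 418 and 587 of 990 without flower bud 4.

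**Figure D3:**
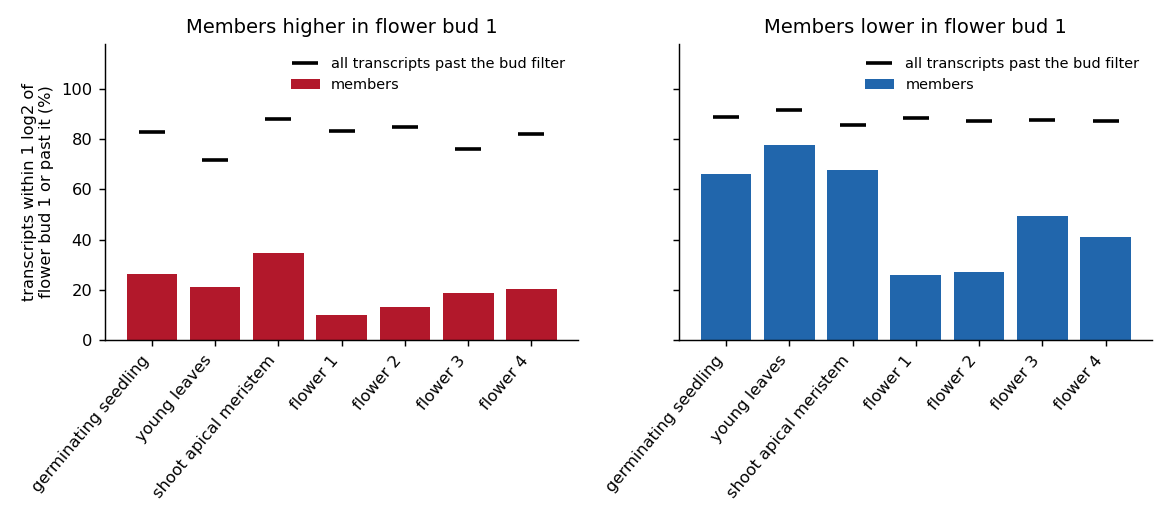
Share of members (bars) within 1 log2 of flower bud 1, or past it in the direction of the set, in each vegetative tissue and flower. Black marks give the share over all transcripts that passed the minimum. Members were chosen by their flower bud 1 level, so bars below the marks follow in part from the rule. Bars for higher members are tallest in the shoot apical meristem (34.6%) and shortest in flower 1 (10.1%), and bars for lower members are tallest in young leaves (77.7%) and shortest in flower 1 (26.0%).

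By the rule the lower members stepped up after flower bud 1, and their summed level rose past that of the higher members. Their summed level was 13700 RPKM in flower bud 1 (1.82% of its total) and rose to 55800, 79500 and 102000 in flower buds 2, 3 and 4, where it was 13.2% of the total. The median member had 3.54 RPKM in flower bud 1 and 14.6, 19.5 and 22.4 in the later buds. In 171 members a later bud reached 100 RPKM, and in 70 all 3 did. Flower bud 1 was under 1 RPKM in 126 members and held 0 reads in 12. Levels increased at each step from flower bud 2 to 4 in 296 members (44.0%), against 19.4% of all transcripts. The rule used the values of these buds, so the difference between these shares may follow in part from the choice. The highest of all 11 libraries was flower bud 4 for 178 members and flower bud 3 for 117. The rule kept flower bud 1 from being the highest, and no share over all transcripts stands beside these counts.

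Ca_TC26592 had the largest gap, with 1.72 RPKM in flower bud 1 and 275, 2528 and 507 in flower buds 2 to 4. It was abundant everywhere else, at 164, 875 and 137 RPKM in seedling, leaves and meristem and at 812, 866, 567 and 149 in flowers 1 to 4. Ca_TC29008 had 2.73 RPKM in flower bud 1 and 90.0, 192 and 85.5 in the later buds. Its flowers held 139, 148, 316 and 38.2 RPKM, and seedling, leaves and meristem 134, 29.7 and 12.2. Ca_TC34349 had 1.71 RPKM in flower bud 1, 44.9, 184 and 161 in the later buds, and 713, 982, 2192 and 3104 in flowers 1 to 4. Seedling, leaves and meristem held 563, 64.8 and 965 RPKM of it. For all 3 transcripts flower bud 1 stood below every other library, and the values there rest on 7, 12 and 8 reads. Their recovered lengths were only 120, 130 and 138 bases. In all, 38 lower members (5.65%) lay at least 1 log2 below all other 10 libraries. The rule makes every such transcript a lower member, so these are also the 0.12% of all transcripts with the pattern. That count was 61 without flower bud 4, 78 without young leaves and 58 without the shoot apical meristem.

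Transcript length moved with membership in both sets. The median recovered length was 399 bases in the lower members, 645 in the higher members and 793 in all transcripts that passed the minimum. Of 1675 transcripts of at most 150 bases, 5.25% were lower members, and the share was 3.24% from 151 to 200 bases, 1.11% from 1001 to 2000 and 0.515% above 2000. The share of higher members was 1.73% up to 150 bases, highest at 3.53% from 301 to 500, and 1.07% above 2000. For all transcripts, the median of flower bud 1 minus the mean of later buds ran from -0.20 log2 at up to 150 bases to 0.23 above 2000 bases. Among the 22756 transcripts of at least 300 bases, a limit chosen after the data were seen, 510 were higher (2.24%) and 361 lower (1.59%). The part of transcript length in the lower set was not tested further. Lengths are reconstructed from the values, and at a given RPKM in a library a short transcript rests on fewer reads than a long one.

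**Figure D4:**
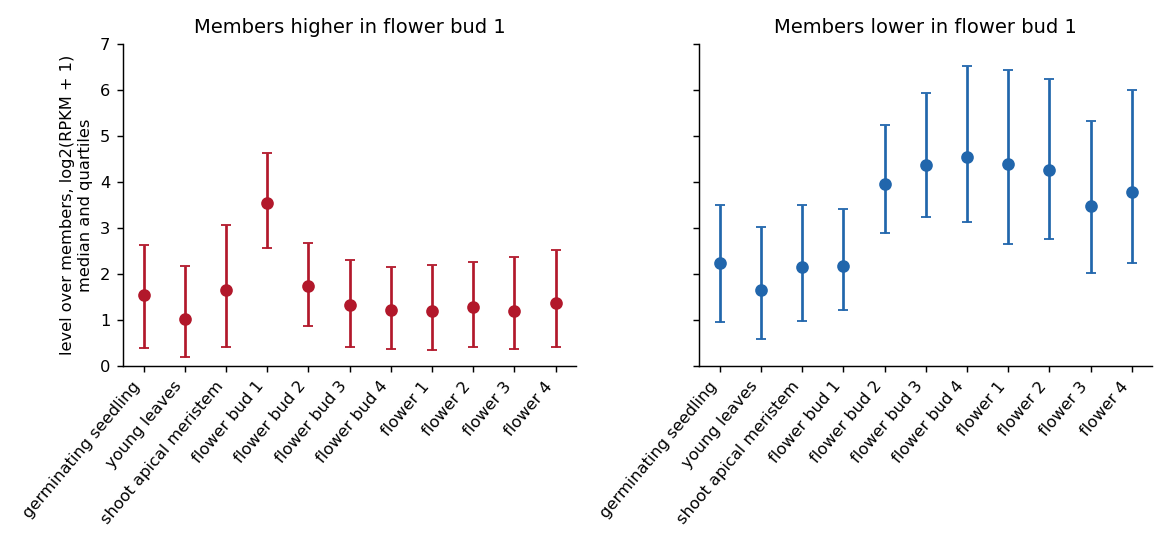
Level of the higher members (left) and lower members (right) in each of the 11 libraries as log2(RPKM + 1); points are medians over members and bars span the quartiles. The higher members have a median of 3.55 in flower bud 1 and 1.73 or less elsewhere, whereas the lower members go from 2.18 in flower bud 1 to 4.55 in flower bud 4 and 3.79 in flower 4.

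The lower members had medians of 2.16 to 3.73 RPKM in the vegetative tissues and 10.2 to 20.2 in the flowers. A vegetative tissue at or under the flower bud 1 level, within 1 log2, was found for 605 (89.9%), against 98.4% of all transcripts. For 334 members all 3 tissues were, a count with no share over all transcripts beside it. The flower bud 1 level also chose the members, so shares below those of all transcripts, here and for the flowers, follow in part from the rule. Young leaves met this most often (523 members), then the shoot apical meristem (457) and the germinating seedling (445). Young leaves also came first over all transcripts, at 91.5%, against 85.8% for the meristem and 88.8% for the seedling. At least 1 flower was back within 1 log2 of flower bud 1, or below, for 402 members (59.7%; 95.0% of all transcripts). Flowers 1 and 2 had 175 and 183 such members, fewer than flowers 3 and 4 with 332 and 275, while the shares of all transcripts were 88.3%, 87.2%, 87.5% and 87.1% in flowers 1 to 4. A vegetative tissue but no flower met the level in 233 members (34.6%), a flower but no vegetative tissue in 30 (4.46%), and both in 372 (55.3%). These class counts too have no share over all transcripts beside them and show no leaning of the members. The 233 had a median of 3.56 RPKM in flower bud 1, 15.7, 27.3 and 47.4 in the later buds and 37.8 to 68.9 in the flowers. By the definition of the classes the 372 have a flower near flower bud 1 and the 233 have none; the medians of the 372 went from 4.33 RPKM to 18.2 in flower bud 3 and back to 4.86 in flower 3 and 5.78 in flower 4. Without flower bud 2 the counts for flower and vegetative tissue were 833 and 1220 of 1319 lower transcripts. Without flower bud 4 they were 894 and 1128 of 1267.

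Ca_TC21439, the widest gap among the 233, had 5.14 RPKM in flower bud 1 and 77.6, 326 and 952 in flower buds 2, 3 and 4. Flowers 1 to 4 held 1052, 715, 364 and 1547 RPKM, and vegetative tissue only 1 read, in the meristem. The transcript was thus already present in flower bud 1 and increased through the buds, with a lower value in flower 3. Ca_TC33432, the widest among the 372, had 0.826 RPKM in flower bud 1, 20.7, 48.9 and 35.8 in the later buds, and 11.3, 5.99, 4.81 and 2.52 in flowers 1 to 4. In seedling, leaves and meristem it had 3.21, 0.257 and 0 RPKM, so its highest values were in the later buds. Its recovered length was 143 bases, and the flower bud 1 value rests on 4 reads. Ca_TC01391, the widest among the 30, had 4.90 RPKM in flower bud 1, 23.5, 26.1 and 24.1 in the later buds, and 15.7, 17.4, 0.931 and 7.03 in the flowers. Its vegetative levels were the highest, with 494 RPKM in seedling, 252 in leaves and 26.0 in meristem.

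**Figure D5:**
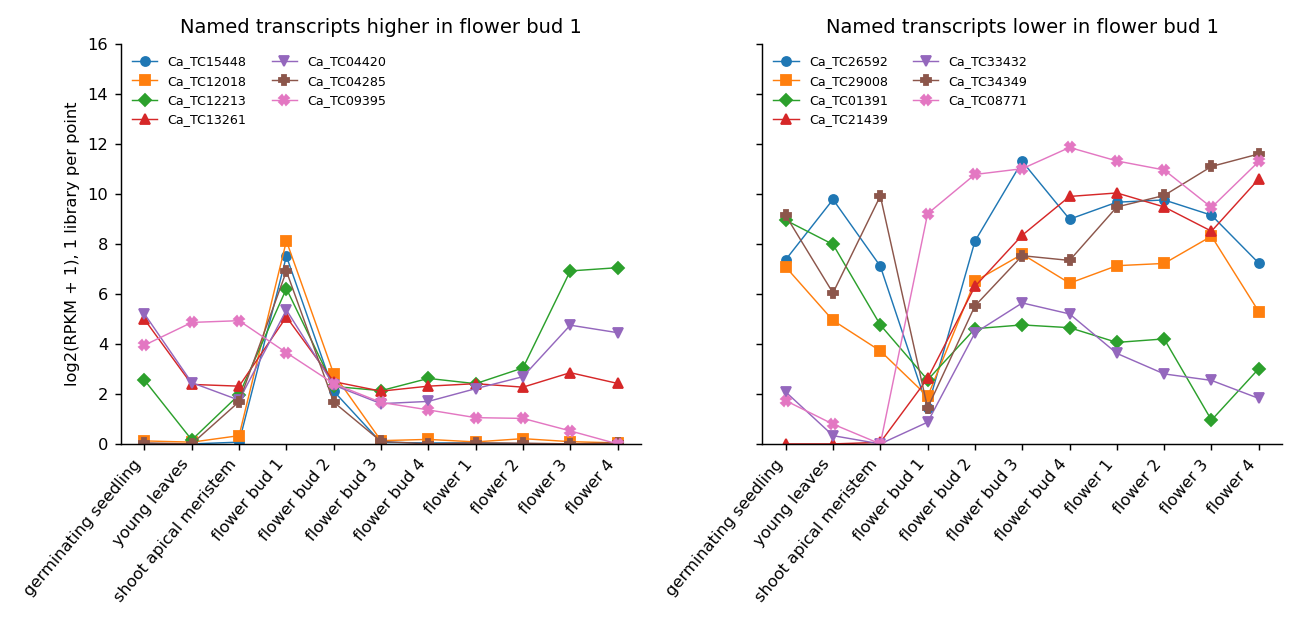
Level of the 14 named transcripts as log2(RPKM + 1) in each library, 1 library per point, for those higher (left) and lower (right) in flower bud 1. On the left, 3 transcripts peak in flower bud 1 and are near 0 from flower bud 3 on, and Ca_TC12213 is high again in flowers 3 and 4; on the right, flower bud 1 is the lowest library for Ca_TC26592, Ca_TC29008 and Ca_TC34349.

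A test was possible for a contrast that the choice of members did not use, the 4 flowers against the 3 vegetative tissues. It asks whether transcripts that differ between flower bud 1 and later buds are also those that set flowers apart from vegetative tissue. The limma fit used these 7 libraries and all 31643 transcripts, and a call needed a Benjamini-Hochberg adjusted p under 0.05 and a difference of at least 1 log2. No group holds replicates of 1 tissue, so p-values reflect how far tissues or stages differ within a group. For the seedling, growing site and plant age cannot be told apart from tissue. For the shoot apical meristem, from plants 20 days old, plant age cannot be told apart from tissue either. The growing site of those plants is not given here. Young leaves came from mature plants, as the flowers did. Of the 673 lower members, 197 (29.3%) were called higher in flowers, where 3.23% of all transcripts were, and 3 (0.446%) were called lower, where 0.834% were. The median difference was 1.20 log2 over the 673 and -0.04 over all transcripts, and 541 members (80.4%) had a positive difference, against 47.7% of all transcripts. The 197 became 149 to 209 when single libraries were left out. Over all transcripts the 1021 higher calls fell to 598, 479 and 617 without flowers 1, 2 and 4. The 264 lower calls became 49, 31, 52 and 46 without flowers 1 to 4, 550 without the seedling, 423 without young leaves and 159 without the meristem. The 3 lower calls among the 673 became 0, 0, 0 and 1 without flowers 1 to 4, and 1 without the germinating seedling.

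Ca_TC08771 had the largest called increase among all members. It had 593 RPKM in flower bud 1, 1758, 2065 and 3726 in the later buds and 2550, 1991, 704 and 2516 in the flowers. Vegetative tissue held 2.31, 0.726 and 0 RPKM in seedling, leaves and meristem, and the groups did not overlap. Its flower minus vegetative difference was 9.92 ± 0.56 log2 (SE; limma, adjusted p = 8.12e-05). For Ca_TC21439 the difference was 9.64 ± 0.46 log2 (SE; limma, adjusted p = 5.43e-05). A set picked after the values were seen holds the 119 lower members that, like Ca_TC21439, stayed under 1 RPKM in all 3 vegetative tissues. Their summed level was 4200 RPKM in flower bud 1 and 15800, 23700 and 42800 in the later buds, against 18.5 to 21.5 in vegetative tissue. The choice capped vegetative tissue and the rule set every later bud above flower bud 1, so both differences were fixed in advance. Flowers 1 to 4 held 28300, 20100, 7630 and 28700 RPKM, and flower 3 was the lowest flower for 105 of the 119 (88.2%) and for 39.1% of all transcripts. Flower bud 1 already had at least 1 RPKM of 94 of them, and 91 increased at each step from flower bud 2 to 4, where 19.4% of all transcripts did. The rule used these bud values too, so this comparison is a description only. Flower bud 4 was the highest library for 69, a count with no share over all transcripts beside it.

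Among the 711 higher members, 12 (1.69%) were called higher and 18 (2.53%) lower in flowers, small counts on either side of the background shares of 3.23% and 0.834%. The median difference was -0.09 log2, and 278 members (39.1%) had a positive difference, against 47.7% of all transcripts. In 85 of the 711, every library but flower bud 1 was under 1 RPKM, so a difference of 1 log2 was out of reach. In 175, all later buds were under 1 RPKM, so these members passed the minimum through flower bud 1 alone. The shares called among the 711 follow in part from this. The 12 became 6 without young leaves and 20 without the seedling. The 18 became 5, 5, 6 and 3 without flowers 1 to 4, 31 without young leaves and 30 without the germinating seedling. Ca_TC09395 had the largest called decrease. It had 14.5, 28.0 and 29.5 RPKM in seedling, leaves and meristem, 11.6 in flower bud 1 and 4.33, 2.17 and 1.56 in the later buds. Flowers 1 to 3 held 1.07, 1.02 and 0.434 RPKM and flower 4 held 0, so flower bud 1 lay between the vegetative tissues and the later buds. Its difference was -3.93 ± 0.40 log2 (SE; limma, adjusted p = 0.00175).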

How the data were processed

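Messenger RNA libraries from 11 chickpea tissues or stages, 1 each, were analysed. Per the series text, the authors cleaned reads using NGS QC Toolkit, mapped these to 34760 transcripts and deposited RPKM values. Which aligner was used, and how shared reads were treated, is not given in the sources used here; near-identical transcripts are therefore uncertain. The 128 blank rows per file were left out.

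Totals, lengths and whole reads were recovered from the RPKM values, since ratios of low values repeat exactly. The shortest length of at least 100 bases giving whole reads was taken. Reads came out whole for all 34703 transcripts above 0, with a tolerance of 3e-06 reads plus 4e-09 of the reads, and summed to 99.952% to 99.998% of the totals. The method was tested on simulated data. Intervals (95%, exact Poisson or Clopper-Pearson) and floors (3 reads) cover counting error only.

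Flower bud 1 against later buds was described without a test. Flowers were set against vegetative tissues on log2(RPKM + 1) using limma 3.58.1 (R 4.3.3) and an intensity trend; this scale understates changes of low transcripts. The fit left out the buds, and the minimum of 1 RPKM in a bud used no flower or vegetative value. Members, classes and rules were chosen with earlier results of these data known. Named transcripts were the 2 widest gaps in each direction, the widest gap not yet named in each of 4 classes (at the flower bud 1 level in a flower, a vegetative tissue, both or neither), and the largest called flower change in each direction. Alternatives were other pseudocounts, scalings, minimums and gaps, no trend and single libraries left out.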

Additional observations from a re-analysis of the deposited data

Results flagged for a closer look

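Of 14 named transcripts tested for a flower library far from the other 3, 2 were past Dixon's critical value for the gap over the range; chance passes about 1 in 20 groups. For Ca_TC15448 that ratio was 1.0, since flower 1 held 0.0310 RPKM, a single read, and flowers 2, 3 and 4 held 0. For Ca_TC04285 it was 0.85, since flower 3 held 0 reads and each other flower 1 read (0.0226 to 0.0267 RPKM). Both rest on at most 1 read per library.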

How the results depend on the processing

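No paired analysis was possible because bud and flower numbers name stages and the vegetative labels carry no number. Under other settings the 14 counts stayed within 1.5 times their reported values in 114 cases and moved further in 66. With a pseudocount of 0.1, 1200 transcripts were higher and 1297 lower in flower bud 1, 400 of the higher returned in a flower and 697 matched a vegetative tissue; of the lower, 642, 1001 and 194 were at the flower bud 1 level in a flower, in a vegetative tissue or below all libraries, and 19 higher members were called higher in flowers. A pseudocount of 5 gave 266 and 259, then 53, 80 and 165 (higher) and 155, 244 and 11 (lower), in the same order of flower, vegetative tissue and all libraries. A gap of at least 2 gave 165 and 92, then 8, 17 and 143, and 30, 82 and 9. At least 300 bases, chosen after seeing the data, gave 361 lower members, with 179, 335 and 18, and 135 and 229 of the higher. A minimum of 5 RPKM left 130 higher members returning in a flower. Quantile normalization gave 415 lower calls in flowers over all transcripts, and median-of-ratios scaling 30 among higher members. The causes were not tested.

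Leaving out single libraries gave 930 to 1250 higher and 796 to 1319 lower transcripts, where leaving out a later bud could only add members. Of the higher, 175 to 484 returned in a flower, 251 to 743 matched a vegetative tissue and 324 to 427 were above all libraries; of the lower, the ranges were 310 to 894, 539 to 1220 and 38 to 78. Flower calls over all transcripts were 479 to 1337 higher and 31 to 550 lower, with 6 to 20 and 3 to 31 among higher members and 149 to 209 and 0 to 4 among lower members. Flower bud 2, with the fewest reads, limits low transcripts most.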
